A study of Mus musculus with 2 samples.

Results

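The interferon-inducible GTPases described here are 8 mouse genes, Gbp2, Gbp3, Gbp5, Gbp7 and Gbp9 of the guanylate-binding protein family and Irgm1, Igtp and Iigp1 of the immunity-related GTPase family. They were chosen by symbol as a readout of the interferon gamma type of response, and each matched 1 of the 32589 features counted in both libraries. Microglia had been taken from the prefrontal cortex of C57BL/6 mice by flow sorting of CD45low CD11b+ cells and profiled by single-cell RNA sequencing. Mice of one group had received vehicle and mice of the other corticosterone, the main glucocorticoid of rodents, by oral gavage in a model of depression that rests on high levels of that hormone. Dose, duration, age, sex and the number of animals in a library were not given in the sources used here. Each group was 1 library. No p-value could therefore be given, and group and library cannot be told apart.

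Interferon gamma binds a receptor of the Ifngr1 and Ifngr2 chains and acts through Jak kinases on genes with gamma-activated sites in their DNA, and it induces the transcription factor Irf1. Type I interferons bind another receptor and act on genes with interferon-stimulated response elements, and most of the GTPase genes answer to both kinds of interferon. The guanylate-binding proteins coat vacuoles and bacteria inside infected cells and help to expose them to inflammasomes, while the immunity-related GTPases act on vacuole membranes, where Irgm1 and Igtp (also called Irgm3) restrain effector GTPases such as Iigp1 (also called Irga6).

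The promoters of 4 members are printed because they stand for both patterns of expression described below. Summed over cells, Irgm1 and Igtp were higher after corticosterone both inside and outside a small interferon-high cluster of microglia-like cells. Gbp2 and Gbp5 were higher inside that cluster and not in the remaining microglia-like cells. Each is the RefSeq window (GRCm38.p6) of 250 bases before to 50 bases after the start of transcription, in the direction of the gene. The Irgm1 window is chr11:48871371-48871670 on the minus strand, that of Igtp chr11:58199306-58199605 on the plus strand, that of Gbp2 chr3:142620413-142620712 on the plus strand and that of Gbp5 chr3:142496684-142496983 on the plus strand. Capitals mark matches on either strand to GAAA and GAAA with any 2 bases between them, as in interferon-stimulated response elements (ISRE-type), and to TTC and GAA with any 3 bases between them, as in gamma-activated sites (GAS-type), which read alike on both strands.
Irgm1: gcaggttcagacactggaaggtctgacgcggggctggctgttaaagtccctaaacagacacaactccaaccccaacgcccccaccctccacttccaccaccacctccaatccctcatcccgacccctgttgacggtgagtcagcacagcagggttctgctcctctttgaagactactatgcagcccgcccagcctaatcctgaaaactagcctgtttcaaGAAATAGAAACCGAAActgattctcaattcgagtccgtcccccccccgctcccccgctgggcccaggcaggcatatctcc
Igtp: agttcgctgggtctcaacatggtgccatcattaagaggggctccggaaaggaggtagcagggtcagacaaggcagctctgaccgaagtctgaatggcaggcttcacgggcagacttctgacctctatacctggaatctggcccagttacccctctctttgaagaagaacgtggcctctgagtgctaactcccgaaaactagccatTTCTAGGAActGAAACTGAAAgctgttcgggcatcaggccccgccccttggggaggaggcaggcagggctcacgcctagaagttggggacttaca
Gbp2: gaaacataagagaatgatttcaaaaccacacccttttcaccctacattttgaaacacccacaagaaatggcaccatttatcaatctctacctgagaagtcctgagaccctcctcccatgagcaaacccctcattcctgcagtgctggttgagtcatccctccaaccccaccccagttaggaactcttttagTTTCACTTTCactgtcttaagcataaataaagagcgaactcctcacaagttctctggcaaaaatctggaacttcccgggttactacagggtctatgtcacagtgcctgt
Gbp5: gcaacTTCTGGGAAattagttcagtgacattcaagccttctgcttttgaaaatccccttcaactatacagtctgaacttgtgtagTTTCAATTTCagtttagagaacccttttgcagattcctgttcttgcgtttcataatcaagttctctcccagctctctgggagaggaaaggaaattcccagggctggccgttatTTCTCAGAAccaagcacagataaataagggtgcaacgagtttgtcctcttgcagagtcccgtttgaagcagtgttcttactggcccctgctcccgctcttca

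All 6 members with a RefSeq promoter entry held an ISRE-type match, against 3.44% of all 32851 RefSeq promoters of the same length. A GAS-type match was found in 3 of the 6 (Gbp5, Gbp7 and Igtp), against 8.30% of all promoters, and both kinds stood together in 0.454% of all promoters. The matches were not particular to the members. Of 8 other interferon-inducible GTPases with an entry, 6 held an ISRE-type and 4 a GAS-type match. Of 13 type I interferon targets with an entry, 7 held an ISRE-type and 3 a GAS-type match. In Irgm1 a pair of overlapping ISRE-type matches began at -30 and -24 from the start of transcription. Igtp held a GAS-type match at -45 followed by an ISRE-type match at -34. Gbp2 had 1 ISRE-type match, at -59, and no GAS-type match. Gbp5 had its ISRE-type match farther upstream, at -165, between GAS-type matches at -245 and -52. In no member did a match of one kind overlap one of the other kind. Gbp3 has 2 entries, of which 1 held matches, and Gbp9 and Iigp1 have none in the table. A match describes letters in this window and is not evidence of binding.

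**Figure D1:**
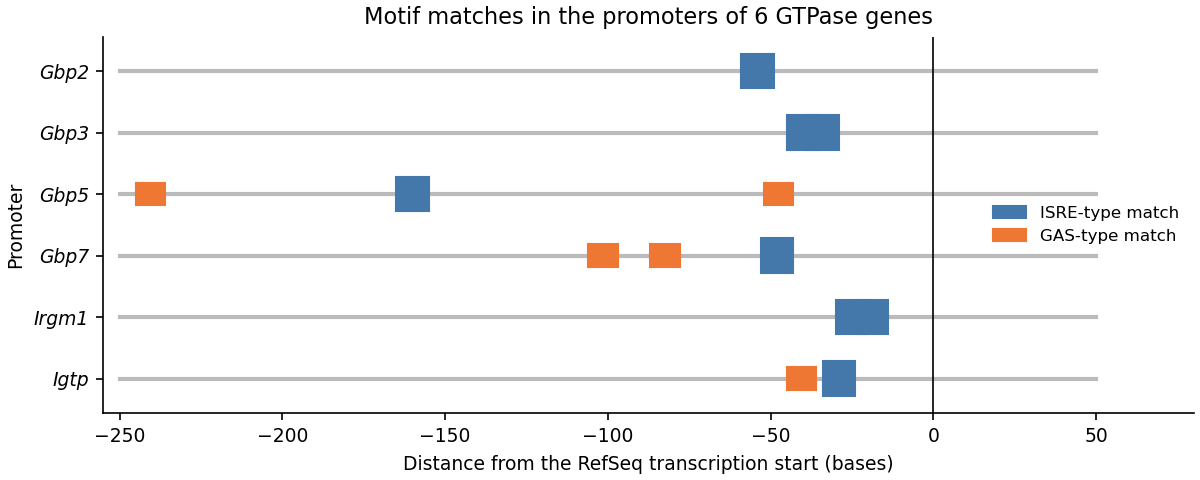
Positions of ISRE-type (blue) and GAS-type (orange) matches, in bases from the RefSeq start of transcription, in the promoter windows of 6 GTPase genes; for Gbp3 and Irgm1 each broad block is 2 overlapping ISRE-type matches. Every promoter shown has an ISRE-type match, and 3 (Gbp5, Gbp7 and Igtp) also have a GAS-type match.

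Gbp5, Gbp7, Gbp3 and Gbp2 lie side by side on the plus strand of mouse chromosome 3, within 144031 bases (GRCm38, GENCODE vM21). Gbp5 spans chr3:142493978-142522344, Gbp7 chr3:142530342-142550149, Gbp3 chr3:142560026-142573209 and Gbp2 chr3:142620602-142638008. Gbp9 lies on the minus strand at chr5:105077630-105139539 and overlaps Gbp4 and Gbp8 on the same strand. Irgm1 lies on the minus strand at chr11:48861968-48871683, Igtp on the plus strand at chr11:58199556-58207591, where it overlaps its paralog Irgm2, and Iigp1 on the plus strand at chr18:60376027-60392634. Paralogs share sequence, which limits how surely a read is placed. Of all 31-base words in the transcripts of a gene, 18.3% in Gbp9 (most with Gbp4), 15.9% in Igtp (most with Irgm2) and 14.7% in Gbp7 (most with Gbp3) also occurred in another gene, and 2.20% to 6.90% did in the remaining 5. In the last 500 bases of the longest transcript, where poly-A primed reads gather, the shared part was between 0% and 2.98%.

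After filtering, the vehicle library held 10500 cells with 49325067 UMIs (tags that count each captured transcript a single time) and the corticosterone library 17883 cells with 85103539 UMIs, at medians of 3220.5 and 3961 UMIs per cell. Cell classes were rebuilt from markers. Microglia-like cells numbered 7940 in vehicle (75.6%) and 15137 in corticosterone (84.6%), border-associated macrophage-like cells 1100 and 827, neutrophil-like cells 201 and 255, and monocyte-like cells 106 and 126. The 11 microglia markers summed to 39313 counts per 1000000 UMIs (CPM) in vehicle and 33706 CPM in corticosterone microglia-like cells. All 11 were also detected in every other class, so their detection does not tell the classes apart. The median level of Siglech, Tmem119, P2ry12 and Sall1, relative to microglia-like cells, was 0.822 and 0.661 in macrophage-like cells and 0.754 and 0.886 in erythroid-like barcodes (red blood cells) of the vehicle and corticosterone libraries. In microglia-like cells, macrophage markers summed to 310 and 323 CPM, monocyte markers to 9.50 and 20.2 CPM and neutrophil markers to 773 and 646 CPM, with no marker of these lists at 0. Markers of T and NK cells, the usual sources of interferon gamma, summed to 0.743 and 0.777 CPM and to 0.310 and 0.0424 CPM, with 4 and 3 of 6, and 2 and 4 of 5, at 0. The part of other cells' RNA in the results below was not tested. In all, 104 barcodes occurred in both libraries (0.985% of the vehicle and 0.574% of the corticosterone barcodes).

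Summed over the 8 members, the level in microglia-like cells was 266 CPM in vehicle (95% Poisson interval 261 to 272, from 8604 UMIs) and 454 CPM in corticosterone (449 to 459, from 32145 UMIs). The log2 ratio of corticosterone over vehicle was 0.77 (0.73 to 0.80). All intervals cover counting error only. Of the members, 7 passed a minimum mean level of 5 CPM, and none of these 7 was past 2-fold in either direction, where 2.22% of all 9678 genes at that level were past 2-fold higher and 2.06% past 2-fold lower. At 1.5-fold, 5 of the 7 were higher, where 5.85% of all genes were. Their median log2 ratio was 0.66, beside -0.01 for all genes, whose 5th and 95th percentiles were -0.67 and 0.64. The member just short of 2-fold was Irgm1, with a log2 ratio of 0.998, and it passed 2-fold under several other settings.

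The immunity-related GTPases that act as regulators had the highest ratios among the 7. Irgm1, which guards host membranes and is tied to autophagy and mitochondria, stood at 70.4 CPM in vehicle (67.6 to 73.4) and 141 CPM in corticosterone (138 to 143). The 2 intervals did not overlap, the log2 ratio was 0.998 (0.93 to 1.06), and Irgm1 ranked 216 of 9678 genes by ratio. Igtp, the second regulator, was measured at 52.4 CPM (49.9 to 55.0) and 99.8 CPM (97.5 to 102), with a log2 ratio of 0.93 (0.85 to 1.01) and rank 244. Iigp1, the effector GTPase, was rare in microglia-like cells, with 23 UMIs in vehicle (0.712 CPM, 0.451 to 1.07) and 233 UMIs in corticosterone (3.29 CPM, 2.88 to 3.74). It had the highest log2 ratio of the 8, 2.21 (1.59 to 2.89), but lay below the minimum level and entered no count.

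Among the guanylate-binding proteins the ratios were spread widely. Gbp3 stood at 15.1 CPM in vehicle (13.8 to 16.5) and 27.9 CPM in corticosterone (26.7 to 29.2), a log2 ratio of 0.89 (0.75 to 1.04). Gbp7, which has been linked to the oxidative defence of macrophages, stood at 78.4 CPM (75.4 to 81.6) and 124 CPM (121 to 126), a log2 ratio of 0.66 (0.59 to 0.72). Gbp2, a protein that coats pathogen vacuoles, was at 8.73 CPM (7.74 to 9.81) and 13.3 CPM (12.5 to 14.2), a log2 ratio of 0.61 (0.42 to 0.81). In these 3 genes the corticosterone interval lay wholly above the vehicle interval. Gbp9 differed less, with 25.6 CPM (23.9 to 27.4) and 29.8 CPM (28.6 to 31.1), a log2 ratio of 0.22 (0.10 to 0.34). Gbp5, which has been linked to activation of the Nlrp3 inflammasome, was at 14.9 CPM (13.6 to 16.3) and 15.4 CPM (14.5 to 16.4). Its intervals overlapped, and its log2 ratio of 0.05 had an interval from -0.11 to 0.21. Neighbours of Gbp5 on chromosome 3 thus differed between the libraries while Gbp5 did not differ beyond counting error.

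After each cell was thinned to 1000 UMIs, 22.2% of 7331 vehicle microglia-like cells (21.3 to 23.2%, exact binomial) and 32.8% of 15046 corticosterone cells (32.0 to 33.5%) held a UMI of any member, leaving out 609 and 91 shallower cells. Without thinning the shares were 52.5% and 74.0%. Erythroid-like barcodes, which should not transcribe these genes, gave 23.0% of 113 in vehicle (15.6 to 31.9%) and 23.7% of 152 in corticosterone (17.2 to 31.3%), with median depths of 2895 and 3991 UMIs (microglia-like cells: 3180.5 and 4002 UMIs). These barcodes carried microglial marker RNA at 0.754 and 0.886 of the microglia-like level. They are thus no background free of microglial RNA, and a like share cannot show that microglia-like cells lack these transcripts. The vehicle microglia-like share lay inside the erythroid-like interval and the corticosterone share above it. Neither was read as showing expression or its absence. With cells thinned to 2000 UMIs the corticosterone shares were 52.0% in microglia-like cells and 52.0% in erythroid-like barcodes, so the difference did not hold at that depth. Irgm1 was found in 6.57% of vehicle cells (6.02 to 7.17%) and 11.7% of corticosterone cells (11.2 to 12.2%), with 6.19% and 9.21% of erythroid-like barcodes. Igtp was found in 4.79% and 9.07%, with 4.42% and 7.24% (3.67 to 12.6%) of erythroid-like barcodes, and Gbp7 in 7.38% and 10.9%, with 7.96% and 7.24% (3.67 to 12.6%). For these 3 genes the microglia-like share lay inside the erythroid-like interval in both libraries. These shares too were not read as showing expression or its absence. Gbp5 stayed at 1.42% and 1.43%, and Iigp1 was found in 0.0546% and 0.226%, with 1 and 0 erythroid-like barcodes. Unthinned, cells with at least 5 member UMIs made up 3.66% of the vehicle and 11.4% of the corticosterone microglia-like cells, and cells with at least 2 different members 20.0% and 38.6%; these shares move with depth.

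The summed members were higher in corticosterone at every depth of cell. Their log2 ratio was 1.33 in microglia-like cells of 500 to 1000 UMIs (88 and 36 member UMIs) and 0.77, 0.67, 0.81 and 0.80 in ranges from 1000, 2000, 4000 and 8000 UMIs upwards. Within the sub-clusters of microglia-like cells it was 0.61 in the largest (log2 interval 0.57 to 0.66), 0.60 (0.54 to 0.67) in the next and 0.89 (0.58 to 1.21) in the third, and 0.40 (0.15 to 0.66) in one led by neutrophil granule genes such as Camp and Ngp. In the sub-cluster led by Mmp12, Spp1 and Lpl it was 0.35, with an interval from -0.03 to 0.74 that includes 0. It was 1.34 (1.181 to 1.501) in the sub-cluster led by Ifi205, Ifi208 and Ifit3b, and -0.31 (-2.64 to 1.34) in the smallest, with 18 and 3 cells.

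The members split into 2 patterns once a small interferon-high cluster was set apart. This cluster was found without the members or any interferon list among the variable genes, was led by Ifit3b, Ifit2 and Ifit3, and held 70 vehicle microglia-like cells (0.882%) and 465 corticosterone cells (3.07%). It was singled out after its leading genes were seen, and Iigp1 was also among them, so levels inside it against levels outside are a description. In the 7870 and 14672 remaining cells, Irgm1 still went from 67.6 to 120 CPM (log2 ratio 0.83, 0.76 to 0.90), Igtp from 51.7 to 89.0 CPM (0.78, 0.71 to 0.86), Gbp3 from 14.9 to 25.1 CPM (0.76, 0.61 to 0.91) and Gbp7 from 77.7 to 118 CPM (0.60, 0.53 to 0.66). These 4 genes were higher outside the cluster too. Outside it Gbp2 was at 8.19 CPM without and 7.62 CPM with corticosterone (-0.10, -0.32 to 0.12). Iigp1 was at 0.438 and 0.484 CPM (14 and 33 UMIs; 0.14, -0.80 to 1.16) and Gbp9 at 25.1 and 27.0 CPM (0.11, -0.01 to 0.23). For Gbp2, Iigp1 and Gbp9 the interval thus included 0. Gbp5 was lower, with 14.8 and 12.2 CPM (-0.27, -0.43 to -0.10). With TMM and DESeq2 scaling of the same cells Gbp2 was at -0.02 and -0.01 and Gbp5 at -0.18 and -0.18. Gbp9 was then at 0.19 and 0.20 and Iigp1 at 0.23 and 0.24. No intervals were made under these scalings, so whether that of Gbp9 would still include 0 was not tested.

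Inside the cluster the members were higher after corticosterone as well, summing to 859 CPM in vehicle (279 UMIs) and 1880 CPM in corticosterone (4919 UMIs), a log2 ratio of 1.13 (0.96 to 1.31). Gbp2 was at 61.5 and 162 CPM (20 and 425 UMIs), a log2 ratio of 1.40 (0.75 to 2.13). Gbp5 was at 30.8 and 98.6 CPM (10 and 258 UMIs), with 1.68 (0.78 to 2.76). Irgm1 was at 348 and 679 CPM, with 0.97 (0.69 to 1.25), and Igtp at 123 and 381 CPM, with 1.63 (1.17 to 2.12). Iigp1 was at 27.7 and 76.4 CPM (9 and 200 UMIs), with 1.46 (0.51 to 2.61). For Gbp9, with 0.41 (-0.18 to 1.07), the interval included 0. Only 70 vehicle cells stood behind these values, so the vehicle levels were loosely fixed.

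The share of a gene's UMIs that lay in the interferon-high cluster was highest for Iigp1, Gbp2 and, in corticosterone, Gbp5. For Iigp1 it was 39.1% in vehicle and 85.8% in corticosterone, for Gbp2 7.09% and 45.0%, and for Gbp5 2.07% and 23.6%. For Irgm1 it was 4.97% and 17.8%, for Igtp 2.36% and 14.1%, for Gbp3 2.46% and 13.3%, for Gbp9 3.02% and 12.7% and for Gbp7 1.97% and 8.34%. In corticosterone, all 8 genes were thus over-represented in a cluster that held 3.07% of the cells. A rule that left out every microglia-like cell with at least 5 UMIs of type I interferon targets (480 vehicle and 4986 corticosterone cells) left the same 4 genes higher. Gbp3 then had a log2 ratio of 0.75, Gbp7 of 0.55, Irgm1 of 0.53 and Igtp of 0.63, against -0.36 for Gbp2 and -0.41 for Gbp5. Deep cells meet that rule more easily, and it left out a larger share of the corticosterone library.

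**Figure D2:**
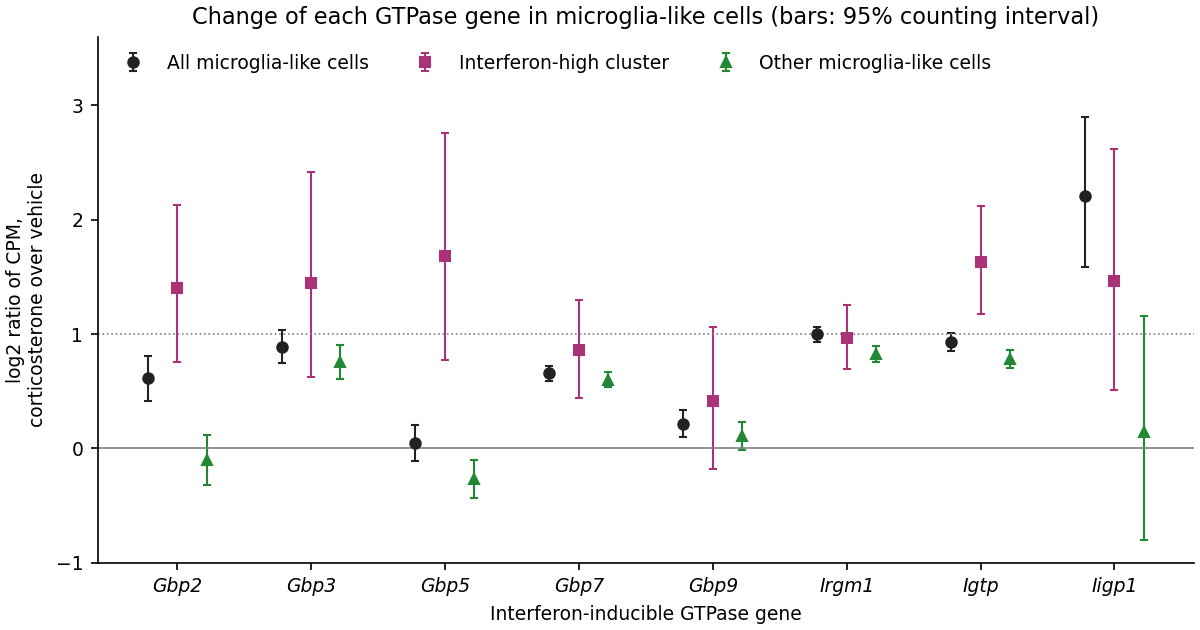
Log2 ratio of CPM, corticosterone over vehicle, of each GTPase gene in all microglia-like cells (black), in the interferon-high cluster (purple) and in the other microglia-like cells (green); bars are 95% counting intervals, the dotted line is 2-fold, and each group is 1 library. Green points of Irgm1, Igtp, Gbp3 and Gbp7 lie well above 0, that of Gbp2 (-0.10) near it and that of Gbp5 (-0.27) below it.

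**Figure D3:**
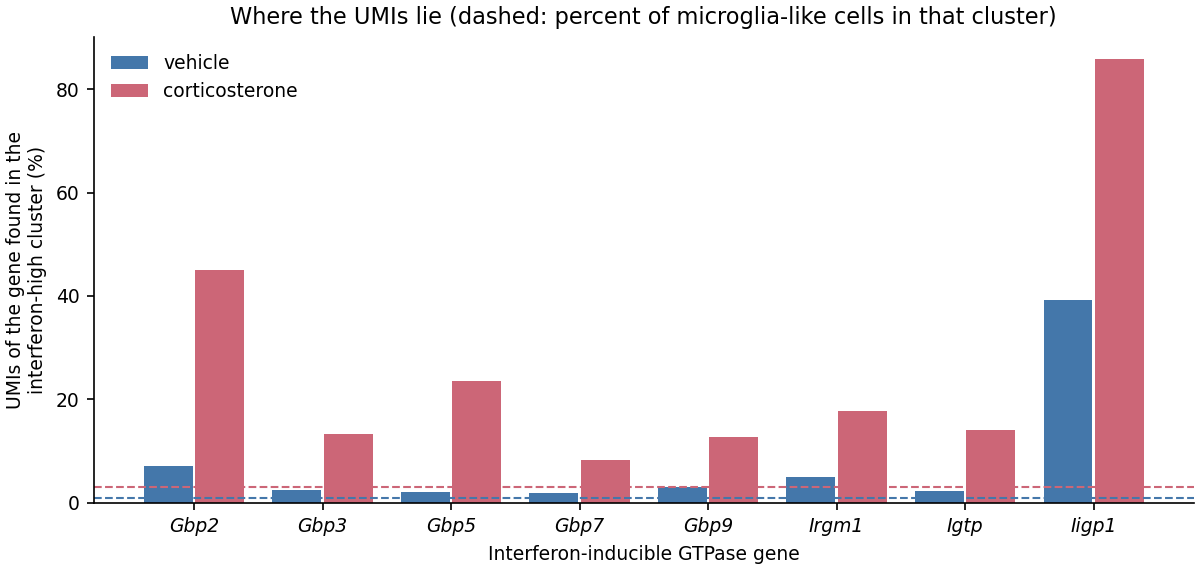
Percent of each GTPase gene's microglia-like UMIs that lay in the interferon-high cluster, by library; dashed lines mark the percent of microglia-like cells in that cluster (0.882% in vehicle and 3.07% in corticosterone). Iigp1 (85.8%) and Gbp2 (45.0%) have the tallest corticosterone bars.

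Outside microglia, the summed level in vehicle was 317 CPM in macrophage-like cells (306 to 327), 314 CPM in neutrophil-like cells (285 to 346), 297 CPM in endothelial-like cells (244 to 359), 232 CPM in monocyte-like cells (199 to 269), 220 CPM in erythroid-like barcodes (178 to 268) and 188 CPM in immature neutrophil-like cells (149 to 235). Microglia-like cells, at 266 CPM, lay below macrophage-like and neutrophil-like cells beyond counting error. Their interval overlapped those of endothelial-like cells, monocyte-like cells and erythroid-like barcodes. In corticosterone the order was neutrophil-like cells at 591 CPM (549 to 636), endothelial-like cells at 467 CPM (379 to 569), microglia-like cells at 454 CPM, monocyte-like cells at 433 CPM (396 to 472), macrophage-like cells at 422 CPM (407 to 438), erythroid-like barcodes at 376 CPM (332 to 424) and immature neutrophil-like cells at 215 CPM (168 to 271). There the neutrophil-like level stood above the microglia-like level beyond counting error and the macrophage-like level below it. Erythroid-like barcodes also went up, with a log2 ratio of 0.78 (0.43 to 1.13). Microglia-like cells, whose marker RNA they carried, had 0.77. These 2 values had unlike backgrounds, since the median log2 ratio of all genes was 0.18 in erythroid-like barcodes and -0.01 in microglia-like cells. Between the libraries the erythroid markers of these barcodes fell from 186987 to 69157 CPM, and the part of this fall in their ratio was not tested.

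Macrophage-like cells gave the members a summed log2 ratio of 0.42 (0.35 to 0.49). All 8 passed the minimum level and 0 were past 2-fold higher, where 2.76% of 9742 genes were. Irgm1 had the highest ratio, from 75.4 CPM (874 UMIs) to 126 CPM (900 UMIs), a log2 ratio of 0.74 (0.61 to 0.88). Iigp1 was more abundant there than in microglia-like cells, with 7.68 and 12.1 CPM and a log2 ratio of 0.65 (0.21 to 1.10). Gbp5 went the other way, from 16.9 CPM (196 UMIs) to 8.98 CPM (64 UMIs), a log2 ratio of -0.91 (-1.34 to -0.50). Gbp2 was at 10.95 and 9.82 CPM (-0.16, -0.60 to 0.27). Gbp9 was at 28.4 and 30.6 CPM (0.11, -0.15 to 0.36), so for Gbp2 and Gbp9 the interval included 0. The makeup of this class also differed between the libraries. Its macrophage markers were at 3764 and 7300 CPM, its dendritic cell markers at 116 and 17.8 CPM and its microglial marker level at 0.822 and 0.661. The part of this makeup in these ratios was not tested.

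In neutrophil-like cells 2 of the 7 members that passed the minimum were past 2-fold higher, where 5.23% of 9693 genes were. These were Irgm1, from 66.4 CPM (88 UMIs) to 197 CPM (240 UMIs) with a log2 ratio of 1.57 (1.21 to 1.94), and Gbp2, from 21.9 CPM (29 UMIs) to 51.7 CPM (63 UMIs) with 1.24 (0.58 to 1.93). In both libraries the Gbp2 level was higher there than in microglia-like cells. Gbp5 was at 14.3 and 10.7 CPM (19 and 13 UMIs), and its interval of -1.57 to 0.67 was wide. The summed microglia markers of this class were at 30423 and 18697 CPM and its neutrophil markers at 39856 and 58035 CPM, and their part in these ratios was not tested. In monocyte-like cells 2 of 7 were past 2-fold higher, where 7.38% of 9739 genes were: Irgm1, from 70.3 to 169 CPM (53 and 198 UMIs; 1.26, 0.82 to 1.73), and Igtp, from 38.5 to 82.8 CPM (29 and 97 UMIs; 1.11, 0.49 to 1.76). The makeup of this class differed between the libraries as well, with monocyte markers at 1343 and 6214 CPM, immature neutrophil markers at 245 and 4212 CPM and microglia markers at 29434 and 16293 CPM, and its part was not tested. Irgm1 was also past 2-fold higher in endothelial-like cells (18 and 28 UMIs, 1.43, 0.52 to 2.37) and in immature neutrophil-like cells (15 and 28 UMIs, 1.21, 0.26 to 2.22). The share of all genes past 2-fold was not computed for these small classes. The same held for Irgm1 in erythroid-like barcodes (18 and 74 UMIs, 1.33, 0.58 to 2.17), which should not transcribe it. There 13% of 9451 genes were past 2-fold higher and the 95th percentile of all genes was 1.62, above the value of Irgm1.

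**Figure D4:**
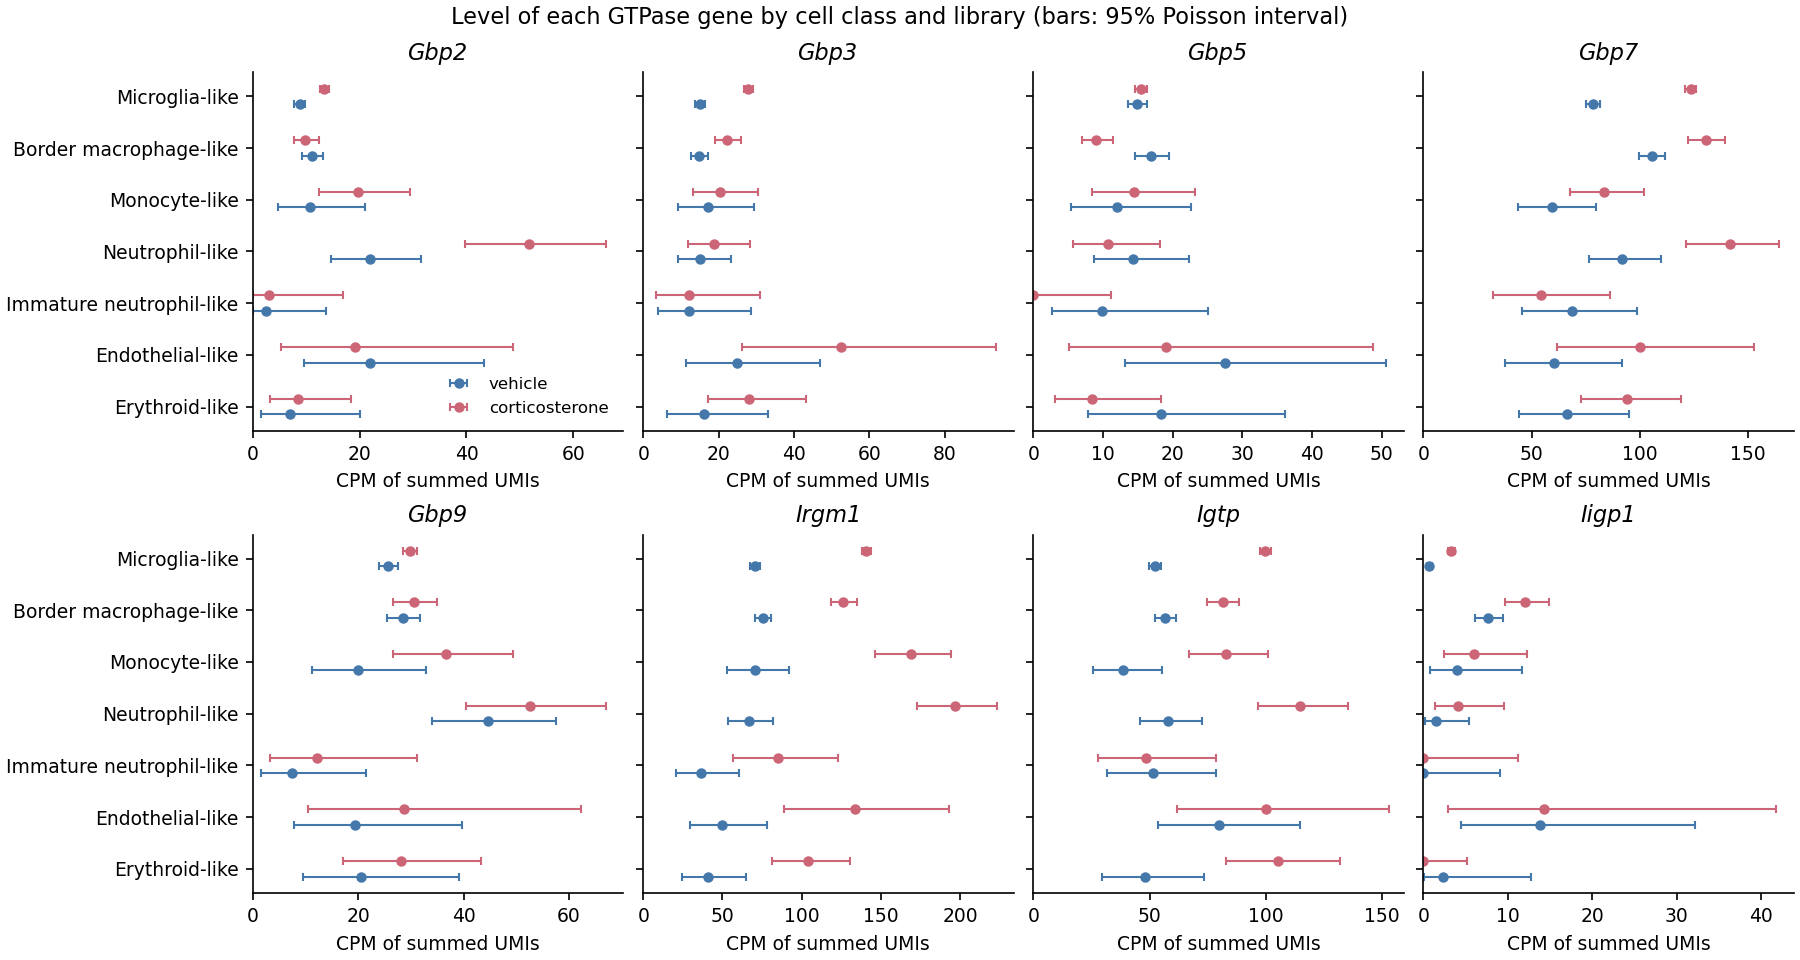
Level of each GTPase gene (CPM of UMIs summed over a class, linear axis) in 7 cell classes for vehicle (blue) and corticosterone (red); bars are 95% Poisson intervals and each point is 1 library. The point for Irgm1 is higher in corticosterone in all 7 classes, whereas Gbp5 in macrophage-like cells is lower (16.9 and 8.98 CPM).

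Other interferon-inducible GTPases were given by a list of 16 genes, of which 14 are among the features. In microglia-like cells 6 passed the minimum level, with a median log2 ratio of 0.30. Of these 0 were past 2-fold in either direction, where 2.22% of all 9678 genes were past it higher and 2.06% lower. Irgm2, the third regulator, went from 43.4 to 56.6 CPM, a log2 ratio of 0.38 (0.30 to 0.47), lower than those of Irgm1 and Igtp. The most abundant of the list, 9930111J21Rik2, was at 210 and 200 CPM (-0.07, -0.11 to -0.03). Ifi47 (0.95) and Gm4951 (0.74), named after their values were seen, were nearest to 2-fold.

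The ligand and receptor of interferon gamma were looked at next. No UMI of Ifng, the ligand, was found in microglia-like cells of either library, which allows up to 3 UMIs in each. The receptor chain Ifngr1 was at 709 and 693 CPM (-0.03, -0.06 to -0.01) and Ifngr2 at 209 and 287 CPM (0.46, 0.42 to 0.50). Irf1, a transcription factor that interferon gamma induces, was at 134 and 136 CPM (0.02, -0.04 to 0.07).

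Targets typical of interferon gamma were mixed. Among all 9678 genes, 2.22% were past 2-fold higher and 2.06% past 2-fold lower. Of 18 such targets, 12 passed the minimum, 3 were past 2-fold higher and 2 past 2-fold lower, with a median of 0.41. The higher ones were Tap1, the peptide transporter (37.5 to 79.6 CPM, 1.09), the chemokine Cxcl10 (47.2 to 96.3 CPM, 1.03) and Nlrc5, the activator of class I histocompatibility genes (3.56 to 8.63 CPM, 1.28). The lower ones were the class II chains H2-Aa (12.7 to 2.99 CPM, -2.08) and H2-Eb1 (13.1 to 2.94 CPM, -2.15). H2-Eb1 was also lower in neutrophil-like (-2.88), macrophage-like (-2.31) and monocyte-like cells (-0.90). It was lower as well in erythroid-like barcodes, which should not transcribe it. The part of RNA from other cells in the class II values was not tested. Cxcl10, Nlrc5, H2-Aa and H2-Eb1 were named after their values were seen. Ciita, the activator of class II genes, had 3 and 7 UMIs. Cxcl9, a chemokine that interferon gamma induces, had 0 UMIs in vehicle and 73 in corticosterone, which is at least 11.1-fold higher when the vehicle level is put at 3 UMIs. Psmb9, a subunit of the immunoproteasome, was at 100 and 111 CPM (0.15, 0.09 to 0.21).

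Targets of type I interferon had a higher median ratio than the GTPases. Among all 9678 genes, 2.22% were past 2-fold higher and 2.06% past 2-fold lower. All 14 type I targets that passed the minimum, of 17 among the features and 19 listed, were past 2-fold higher, with a median of 2.40. They ran from Bst2, which tethers budding viruses (151 to 360 CPM, 1.26), to Usp18, which removes Isg15 from proteins (7.34 to 47.1 CPM, 2.68), among those with a mean level of at least 20 CPM. Outside the interferon-high cluster the targets still summed to 300 CPM in vehicle and 861 CPM in corticosterone, a log2 ratio of 1.52. Of the type I ligand, receptor and signalling genes 7 of 11 passed, 2 were past 2-fold higher (Irf7 with 2.79 and Stat2, named after its value was seen, with 1.31) and 0 lower, with a median of 0.45. Ifnb1, the ligand interferon beta, had 27 UMIs in vehicle and 271 in corticosterone microglia-like cells, a log2 ratio of 2.195 (1.62 to 2.82). Irf3 was at 61.5 and 58.7 CPM (-0.07). In macrophage-like cells 14 of the 15 type I targets that passed were past 2-fold higher, with a median of 1.57. There 0 of the 8 GTPases and 2.76% of all 9742 genes were past 2-fold higher.

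**Figure D5:**
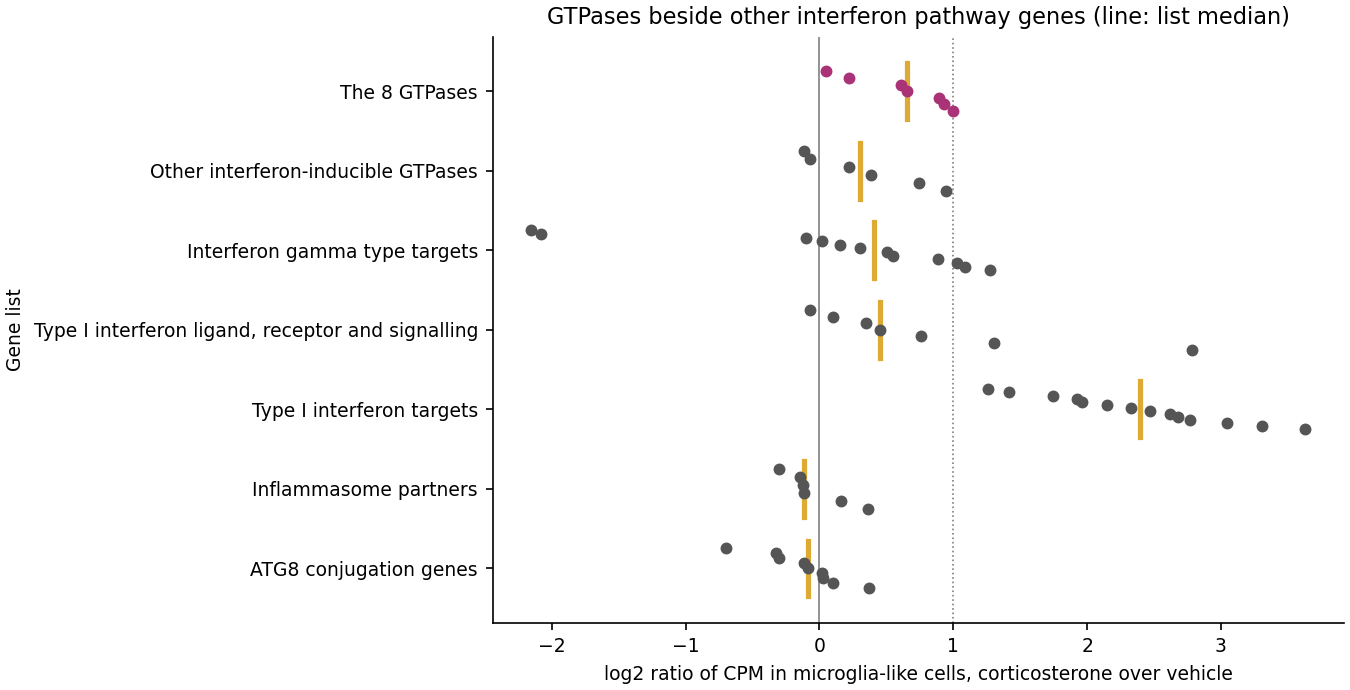
Log2 ratio of CPM in microglia-like cells, corticosterone over vehicle, of each gene that passed the minimum level, by list; the vertical bar is the list median, the dotted line is 2-fold and each group is 1 library. The GTPases (median 0.66) lie between the other GTPases (0.30) and the type I interferon targets (2.40), all 14 of which are past 2-fold.

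Genes that work with the GTPases did not share their shift. Among all 9678 genes, 2.22% were past 2-fold higher and 2.06% past 2-fold lower. Of 6 inflammasome partners 0 were past 2-fold and the median was -0.12, between Casp1 (70.7 to 90.7 CPM, 0.36) and Nlrp3 (147 to 120 CPM, -0.30). Of 9 genes of the ATG8 conjugation system, which loads immunity-related GTPases onto vacuoles, 0 were past 2-fold and the median was -0.09, between Atg16l1 (25.9 to 27.7 CPM, 0.10) and Gabarapl1 (36.1 to 22.3 CPM, -0.70) at a mean level of at least 20 CPM.

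Over 10 profiles (5 classes in 2 libraries), the genes whose log2(CPM + 1) was most like the mean standardised profile of the members were Ddx58 (Pearson r = 0.95), Pigx (0.93), Herc6 (0.92), Trim30d (0.92), Itpripl2 (0.92) and Trim30a (0.91), out of 6360 genes. The profiles share libraries and depth, so these are descriptions. Against the mean of the other members, r was 0.84 for Irgm1, 0.79 for Gbp7, 0.75 for Igtp, 0.70 for Gbp9, 0.63 for Gbp2, 0.26 for Gbp3, 0.21 for Iigp1 and -0.43 for Gbp5. Over these profiles Gbp5 was the only member with a negative r. Its UMIs were few in several classes, with 9 and 17 in monocyte-like cells, 19 and 13 in neutrophil-like cells and 8 and 6 in erythroid-like barcodes. Inside the interferon-high cluster Gbp5 was higher after corticosterone like the other members, with a log2 ratio of 1.68.

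Within libraries, other genes were compared between microglia-like cells with at least 2 member UMIs (286 in vehicle and 1234 in corticosterone after thinning to 1000 UMIs) and those with 0 (5702 and 10113). The median gene had a ratio of 0.989 in vehicle and 0.981 in corticosterone. Ranked by the geometric mean of the ratios in both libraries, the first 6 genes were Ifit3 (11.2 and 13.5), Irf7 (10.4 and 5.16), Ifit2 (5.33 and 9.51), Isg15 (4.48 and 6.23), Fgl2 (3.85 and 6.67) and Usp18 (4.39 and 5.05). Of these 6 genes, 5 belong to the type I interferon lists. In vehicle they rest on 9 to 37 UMIs in the cells with members.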

How the data were processed

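The deposited values are raw UMI counts for every gene in every cell barcode, with 1 library for each group. Per the submitters' processing notes, reads were demultiplexed with bcl2fastq 2.19 and the build was GRCm38; the aligner, the counting program and the annotation were not given in the sources used here. Of the features, 99.8% matched GENCODE vM21. The files are named wild type and depression, and each was assigned through its sample record. Labels give no replicate cultures or animals.

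Barcodes below 500 UMIs or 300 genes, or above 20% mitochondrial UMIs, were left out, which removed 55 of 10555 vehicle and 230 of 18113 corticosterone barcodes. Median mitochondrial shares were 2.67% and 4.20%. Scrublet called 0 and 1 doublets, which was taken as a failed call, so none were removed. Leiden clustering (scanpy 1.11.5, leidenalg 0.10.2, resolution 0.5) used 2000 variable genes, centred and scaled within each library, without the members and the interferon lists. A cluster took the name of a class with 3 or more markers found in 10% or more of its cells and raised 2-fold over other cells of the same library. Clusters with no such class were called microglia-like where the microglia markers had a geometric mean of 0.5 or more of the level in all cells. In all, 819 and 1310 cells stayed unnamed.

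Counts were summed over the cells of a class, scaled to CPM and compared as a log2 ratio with an exact interval at the 95% level (Poisson for a level, conditional binomial for a ratio, Clopper-Pearson for a share). Genes with a mean of at least 5 CPM entered counts, and a count of 0 was taken to allow 3 UMIs. Steps were tested on simulated data. The members and the gene lists were chosen with earlier results of these data known. Named genes are the members, the genes of highest and lowest ratio in each list at a mean of at least 20 CPM, genes needed to read the pathway, and the 6 genes nearest in profile and in co-detection. Scaling by TMM (edgeR 4.0.16) and by DESeq2 1.42.0 size factors, other cell filters, cell rules, resolutions and depths were tried as alternatives. RefSeq promoters (GRCm38.p6) were searched for 2 motifs. Protein sequences were not used here, and the counts over the list of interferon gamma signalling genes are not reported here.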

Additional observations from a re-analysis of the deposited data

Results flagged for a closer look

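Gbp5 went opposite ways in the microglia-like cells of the interferon-high cluster and in the other microglia-like cells. Its log2 ratio of corticosterone over vehicle was 1.68 (0.78 to 2.76, from 10 vehicle and 258 corticosterone UMIs) in the cluster and -0.27 (-0.43 to -0.10) outside it. Neither interval included 0, but the difference between the 2 sets of cells was not tested, since each group was 1 library. TMM and DESeq2 scaling kept both directions, with 1.78 and 1.78 inside the cluster and -0.18 and -0.18 outside it.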

How the results depend on the processing

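The summed log2 ratio of the members in microglia-like cells, 0.77, was positive under all 15 alternatives. It was 0.86 with TMM and 0.88 with DESeq2 scaling, under which the all-gene median moved by 0.09 and 0.11, and 0.84 with a rule per cell for microglia (1517 and 2219 cells, keeping 2 of 70 and 44 of 465 interferon-high cells). It was 0.69 over all cells and 0.69 over all deposited barcodes, 0.62 without the interferon-high cluster, 0.61 without the similar sub-cluster and 0.47 without cells holding at least 5 type I target UMIs. The count past 2-fold, 0 of 7, was 2 with TMM, 3 with DESeq2, 3 with the rule per cell, and 1 each with a mean over cells, without the 6% of barcodes with the highest doublet scores and without barcodes found in both libraries; at 1.5-fold it was 5. That count of 5 was 3 over all cells and 3 over all barcodes, and 2 without cells holding at least 5 type I target UMIs. It was 4 with the rule per cell, with cells thinned to 1000 UMIs and with a mean over cells. Without the interferon-high cluster or without the sub-cluster it was 4 as well, and it stayed at 5 under the remaining alternatives. Over all cells, 2.04% of all 9830 genes were past 2-fold higher and 5.73% past 1.5-fold higher. For the other scalings and sets of cells the share of all genes was not computed. The shares of cells with a member UMI, 22.2% and 32.8%, were 38.6% and 52.0% at 2000 UMIs and 52.5% and 74.0% unthinned.

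Gbp3, Gbp7, Irgm1 and Igtp kept their direction under all 15 alternatives, the lowest values being 0.74, 0.54, 0.53 and 0.63. Gbp2 was -0.13 with the rule per cell, -0.36 without cells holding at least 5 type I target UMIs, -0.10 without the interferon-high cluster and -0.093 without the sub-cluster. Iigp1 was -0.33, -1.19 and -0.036 with the rule per cell, without those cells and without the sub-cluster, and Gbp9 was -0.019 without those cells. Gbp5, 0.05, had the fewest alternatives of the same sign, 9 of 15: it was -0.21 with the rule per cell, -0.41 without those cells, -0.27 without the cluster, -0.26 without the sub-cluster, -0.044 over all cells and -0.038 over all deposited barcodes. Some of these settings leave out interferon-high cells by their construction. The cause of the sign changes was not tested in any setting. The settings that leave out the cluster or sub-cluster, and the 1.5-fold count under each alternative, were chosen after seeing the data; 1.5-fold in place of 2-fold was planned. No paired analysis was possible because each group is 1 library and the labels give no replicate numbers. The vehicle depth limits Iigp1 most, with 23 UMIs, and the interferon-high cluster, with 70 vehicle cells.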

Other observations

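Other GTPases below the minimum level of 5 CPM in microglia-like cells also had values. Tgtp1, a T-cell specific GTPase by name, had 3 UMIs in vehicle and 41 in corticosterone (log2 ratio 2.64, 0.99 to 4.98), Gvin1 80 and 375 (1.10, 0.74 to 1.46), Tgtp2 39 and 181 (1.08, 0.58 to 1.62) and Gbp4 32 and 186 (1.41, 0.86 to 2.00). Gbp6 had 12 and 19 UMIs (-0.47, -1.59 to 0.71) and Gbp10 had 0 in both libraries. In macrophage-like cells 2 of the 7 listed GTPases that passed the minimum were past 2-fold higher, where 2.76% of all 9742 genes were. These were Ifi47, from 19.3 to 42.6 CPM (1.14, 0.89 to 1.40), and Gm4951, from 25.2 to 52.0 CPM (1.05, 0.82 to 1.27). Gbp8 was lower there, with 16.7 CPM in the vehicle and 9.12 CPM in the corticosterone library (-0.88, -1.30 to -0.46). These genes were picked out after their values were seen, and reads of Gbp8 and Gbp9, which overlap, could be split between them.

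Cells that carry the GTPases also differed in Cxcl10 in the corticosterone library. In microglia-like cells with at least 2 member UMIs, its level was 1.09 times that of cells with none in vehicle and 11.7 times in corticosterone. These cells held 15 and 629 Cxcl10 UMIs. Cxcl10 was picked out after its values were seen. Other listed genes also had unlike ratios in vehicle and corticosterone, such as Tap1 (0.412 and 1.94) and Cd274 (0.377 and 2.80, from 1 and 30 UMIs).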
